A study of Rattus norvegicus with 12 samples.

Results

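Integrin and laminin chain genes code for the cell-surface receptors and the basement membrane proteins through which cells hold on to their matrix. The members were all rows of the deposited read-count table whose symbol is a numbered integrin alpha or beta chain, Itgav, or a numbered laminin chain, with at least 1 count in any library. There were 31 such genes of 28620 symbols with a count: 12 integrin alpha chains, 8 integrin beta chains and 11 laminin chains. The rule uses names alone. It leaves out the integrin chains named by letter, such as Itgal, Itgam and Itgax of leukocytes, and Itga2b of platelets.

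The cells were theca-interstitial cells, the androgen-producing cells around the ovarian follicle, isolated from wild type female Sprague Dawley rats on postnatal day 30. They grew on plates coated with human fibronectin, itself an integrin ligand, in all groups. For 48 h they received vehicle (control), the inflammatory cytokine IL-1β of the rat, or LPS, which is lipopolysaccharide from bacteria and for which the labels give 1 µg/ml. It is not clear from the labels whether that dose also holds for IL-1β. Each group held 4 libraries of polyadenylated RNA, and nothing says whether these came from separate animals or isolations, so p-values measure the spread between these samples only.

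An integrin is a pair of an alpha and a beta chain, and the pair decides which matrix protein is bound. A laminin is a trimer of an alpha, a beta and a gamma chain that assembles into the sheet of basement membranes, where laminin-binding integrins and dystroglycan hold it. In the ovary a basement membrane separates the theca from the granulosa layer, and others surround blood vessels and smooth muscle cells.

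Counts per library ran from 20873934 to 32090924. The 31 genes took 0.617% ± 0.0116 of all counts in control libraries (SD, n = 4), 0.511% ± 0.0124 with IL-1β and 0.509% ± 0.0140 with LPS. Levels are given as CPM, counts scaled to a common library total by TMM factors, and since transcript length was not used, levels of different genes are not compared. Of markers listed for the labelled cell type, Star, which brings cholesterol into mitochondria, stood at 141 ± 13.1 CPM in control libraries. The stromal genes Pdgfra and Col1a1 stood at 183 ± 5.59 and 4772 ± 332 CPM. Several other theca markers were low there. Cyp17a1, the defining androgen enzyme, stood at 0.537 ± 0.101 CPM, and Cyp11a1, which starts steroid synthesis, at 3.55 ± 0.261. The LH receptor gene Lhcgr stood at 2.02 ± 0.200, Gli1 at 3.89 ± 0.496 and Insl3 at 0.229 ± 0.0495 CPM. Nr5a1, Ptch1 and Tcf21, the rest of the list, stood at 70.6 ± 1.91, 33.7 ± 0.852 and 21.5 ± 2.4 CPM. Of the 11 theca markers 8 rose (72.7%, against 24.7% of all genes tested) and 2 fell (18.2%, against 23.0%) with IL-1β. With LPS 6 rose (54.55%, against 22.5%) and 2 fell (18.2%, against 20.0%). Cyp17a1 stood at 15.5 ± 2.59 and 3.39 ± 1.37 CPM with IL-1β and LPS, and Cyp11a1 at 75.1 ± 7.12 and 31.7 ± 4.55 CPM. The sum of the 11 theca markers, most of it Col1a1, which fell, was 4945 to 5602 CPM in control libraries, 4131 to 4586 under IL-1β and 3318 to 3744 under LPS. Markers of other cells were present. The summed level of 10 smooth muscle markers was 5171 to 5597 CPM in control libraries, 1728 to 1961 under IL-1β and 2053 to 2304 under LPS. For 12 macrophage markers the ranges were 113 to 119, 59.1 to 63.1 and 51.8 to 58.0 CPM, and for 12 endothelial markers 395 to 432, 538 to 589 and 413 to 521 CPM. The 8 granulosa markers summed to 521 to 567, 711 to 894 and 543 to 693 CPM, the 10 surface epithelium markers to 90.7 to 94.9, 99.3 to 106 and 86.5 to 96.7 CPM, and the 12 markers of lymphocytes, platelets and neutrophils to at most 17.5 CPM. No marker of these lists was at 0 in every library. Sums can hide opposite moves: of the surface epithelium markers 4 rose and 3 fell with each treatment. These are shares of 40% and 30%. Of all genes tested 24.7% rose and 23.0% fell with IL-1β, and 22.5% rose and 20.0% fell with LPS. Msln went from 0.287 ± 0.140 to 2.77 ± 0.611 CPM with IL-1β and 2.50 ± 0.344 with LPS. Krt18 went from 13.3 ± 0.813 to 3.31 ± 0.291 and 3.27 ± 0.194 CPM. In control libraries Wt1 alone stood at 49.6 CPM and Inha, a granulosa marker, at 280 CPM. Tagln (2380 CPM) and Acta2 (1982 CPM) made up most of the smooth muscle sum there. In bulk RNA, fewer cells of a type and less RNA per cell cannot be told apart.

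Promoters of 4 members, chosen after their values were seen, are shown. Itgb8 and Itga5 rose with both treatments, and Itgb1 and Itga11 fell with both. The choice did not follow the size of the change. Each is the 250 bases before the transcript start given by RefSeq on build GRCr8, 5′ to 3′ on the gene's strand. Capitals mark matches, on either strand, to the motif of TEAD factors (GGAATG) or of NF-kB.
Itgb8, chr6:146351246-146351495, minus strand: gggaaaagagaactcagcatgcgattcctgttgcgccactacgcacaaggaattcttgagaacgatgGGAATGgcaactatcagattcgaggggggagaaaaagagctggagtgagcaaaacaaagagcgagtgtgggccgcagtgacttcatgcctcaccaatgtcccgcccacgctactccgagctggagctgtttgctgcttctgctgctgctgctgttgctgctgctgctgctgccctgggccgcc
Itga5, chr7:136381306-136381555, minus strand: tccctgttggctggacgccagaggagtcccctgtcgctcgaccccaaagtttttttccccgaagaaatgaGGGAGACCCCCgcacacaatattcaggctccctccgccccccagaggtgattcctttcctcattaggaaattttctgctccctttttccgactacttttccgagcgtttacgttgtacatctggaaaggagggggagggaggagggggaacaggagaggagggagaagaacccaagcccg
Itgb1, chr19:73602027-73602276, plus strand: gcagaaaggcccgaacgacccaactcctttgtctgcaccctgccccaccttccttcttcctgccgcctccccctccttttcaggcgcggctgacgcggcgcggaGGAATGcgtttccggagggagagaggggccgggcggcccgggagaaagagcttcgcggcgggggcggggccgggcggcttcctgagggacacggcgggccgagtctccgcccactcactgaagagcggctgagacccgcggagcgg
Itga11, chr8:72041182-72041431, plus strand: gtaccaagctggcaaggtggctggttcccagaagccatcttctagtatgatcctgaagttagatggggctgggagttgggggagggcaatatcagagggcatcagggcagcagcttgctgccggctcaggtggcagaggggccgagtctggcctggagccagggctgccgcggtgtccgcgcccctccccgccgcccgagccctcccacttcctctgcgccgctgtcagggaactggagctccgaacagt
The Itga5 match to NF-kB is a pair of overlapping matches, and a TEAD match stands in Itgb8, which rose, as well as in Itgb1, which fell. No match to the motifs searched stands in the Itga11 window. The same holds for the windows of Itga4, Itga9, Itgb5 and Lamc3, which also fell with both treatments and are not shown. A promoter was in the table for 24 of the 31 members. The TEAD motif was in 5 of them, against 12.1% of 33469 promoter windows of the same length. NF-kB matches were in 2 (Itga5 and Lamb3, share of all windows 6.33%), the AP-1 motif TGANTCA in 1 (Lama3, 6.34%), the CRE motif TGACGTCA in 1 (Lamb3, 1.59%) and the CArG box of serum response factor in 2 (Itgb6 and Lama2, 1.50%). A match is a run of letters and not a known binding site.

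The comparisons of IL-1β and of LPS with control ask how each stimulus shifts expression, and they share the control libraries. Of the 31 members 29 had enough counts to be tested, all but Itga10 and Itgb7. With IL-1β 18 of the 29 fell (62.1%, where 23.0% of all genes tested fell) and 6 rose (20.7%, against 24.7% of all genes). With LPS 16 fell (55.2%, against 20.0%) and 9 rose (31.0%, against 22.5%). The median log2 fold change of the 29 was -0.23 with IL-1β and -0.37 with LPS, and over all genes it was 0.01 in either comparison. The libraries of treatment and control did not overlap in 22 of 29 members with IL-1β (44.2% of all genes) and in 22 with LPS (38.3%). Calls are those with an adjusted p under 0.05 in edgeR's quasi-likelihood test with Benjamini-Hochberg adjustment over all genes, and a value after ± is the SD beside a CPM (n = 4) and the SE beside a log2 fold change.

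**Figure D1:**
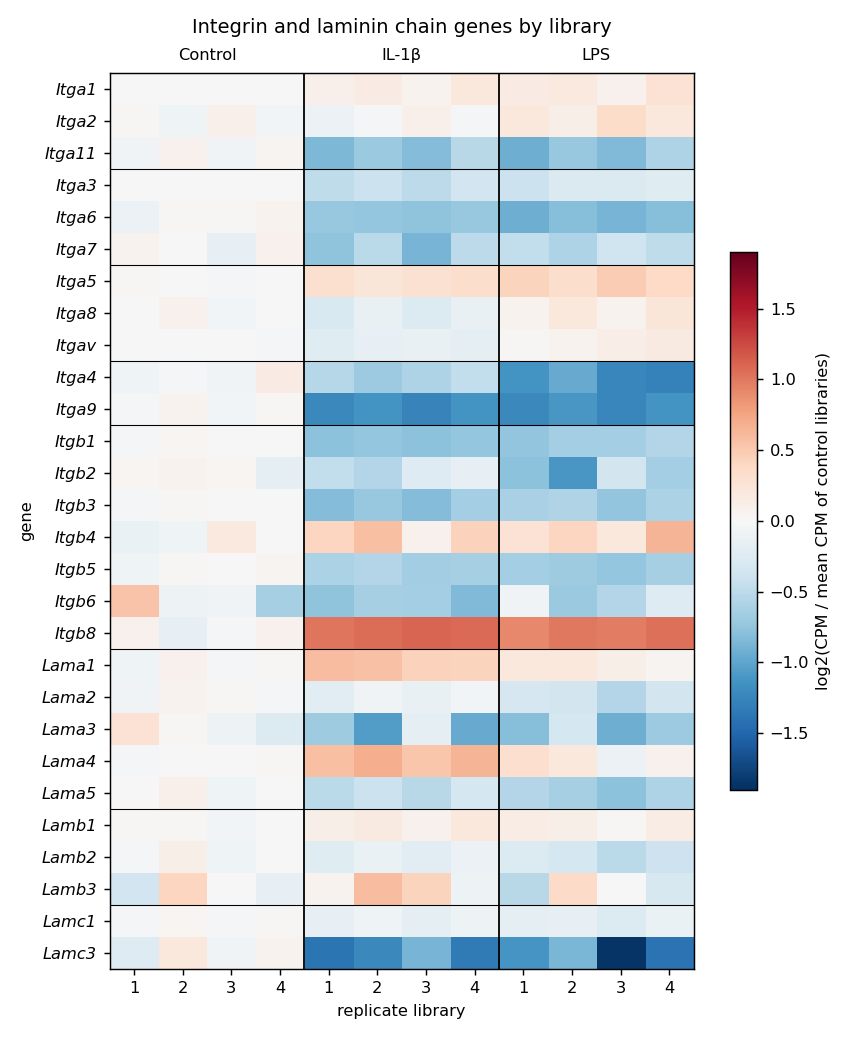
Heat map of 28 of the 29 tested members (rows, in blocks by role) in the 12 libraries (columns, by group and replicate). Colour is log2 of CPM over the mean CPM of the 4 control libraries. Itgb8 is higher and Itga9, Itgb1 and Lamc3 are lower in every treated library than in every control library.

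**Figure D2:**
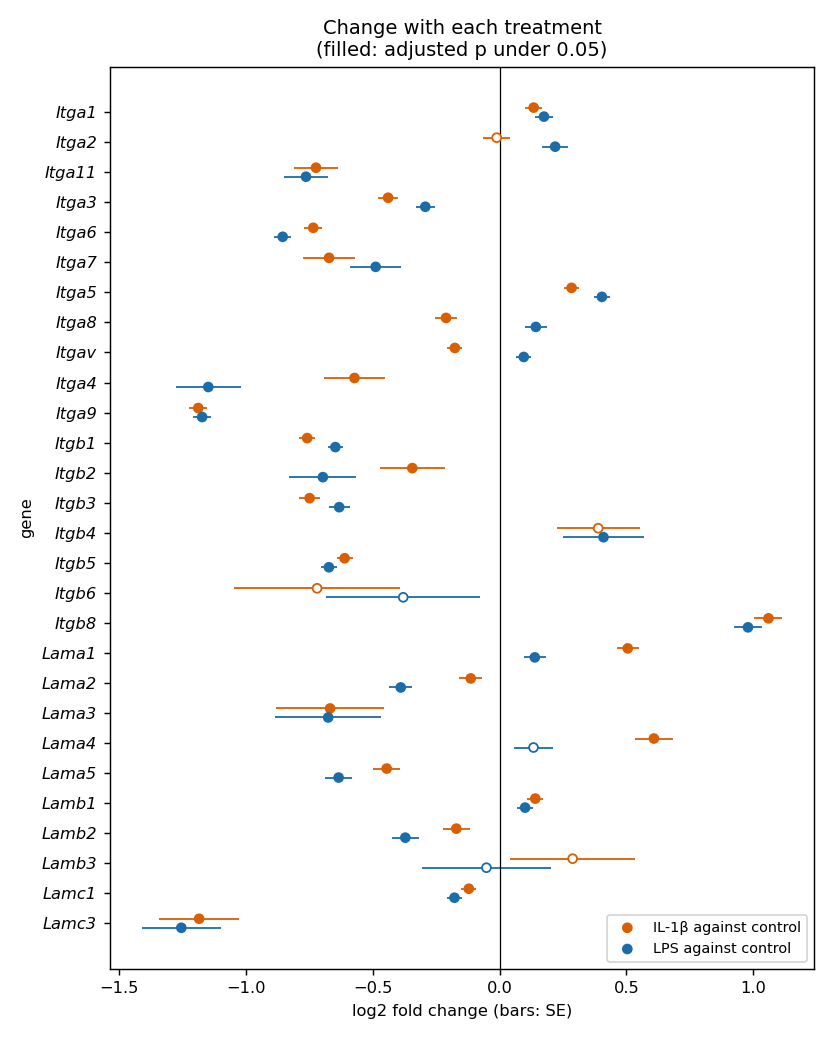
Log2 fold change against control (x axis, bars are SE) for the same 28 members (y axis), with IL-1β in orange and LPS in blue. Filled points passed an adjusted p under 0.05. Itga8 and Itgav lie left of 0 with IL-1β and right of 0 with LPS.

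Itgb1 codes for the beta chain that pairs with most integrin alpha chains and is needed by every collagen- and most laminin-binding integrins. It stood at 2075, 2194, 2136 and 2133 CPM in the control libraries, at 1244, 1279, 1243 and 1279 with IL-1β and at 1275, 1367, 1360 and 1447 with LPS. All treated libraries lay below all control libraries. The fall was 40.9% with IL-1β (log2 fold change -0.76 ± 0.03, adjusted p = 9.86e-18) and 36.2% with LPS (-0.65 ± 0.03, adjusted p = 4.11e-16).

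The partners of Itgav went different ways. Itgb3, whose product binds vitronectin and other RGD proteins with that alpha chain, read 78.4, 80.9, 78.9 and 79.0 CPM in control, 45.0, 48.2, 45.0 and 50.7 with IL-1β and 51.9, 53.4, 46.9 and 52.2 with LPS. The groups did not overlap, and the log2 fold changes were -0.75 ± 0.04 and -0.63 ± 0.04. Itgb5, another vitronectin receptor chain, read 315, 340, 333 and 346 CPM in control, 220.2, 226, 211 and 216 with IL-1β and 214, 208, 199 and 214 with LPS. It too was lower in each treated library (-0.61 ± 0.03 and -0.67 ± 0.03). Itgb8, whose product with the same alpha chain binds latent TGF-β and helps to activate it, was the member with the highest fold. It read 15.3, 13.0, 14.2 and 15.3 CPM in control, 29.1, 30.2, 31.0 and 30.5 with IL-1β and 27.2, 28.9, 28.2 and 29.9 with LPS. Every treated library was well above the control range, a 2.09-fold rise with IL-1β (1.06 ± 0.06, adjusted p = 2.11e-15) and 1.97-fold with LPS (0.98 ± 0.05, adjusted p = 1.42e-14).

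Itgav itself moved little, and in opposite directions. It fell from 353 ± 3.42 to 312 ± 8.27 CPM with IL-1β (-0.18 ± 0.03, adjusted p = 1.34e-05) and was 377 ± 16.0 CPM with LPS (0.10 ± 0.03, adjusted p = 0.00965). The rise with LPS was not called without LPS replicate 4 (0.07, adjusted p = 0.0569) or without LPS replicates 3 and 4 together (0.05, adjusted p = 0.246). Itga8, the alpha chain of the nephronectin receptor, likewise fell with IL-1β, from 146 ± 5.76 to 127 ± 6.73 CPM (-0.21 ± 0.04), and rose with LPS to 162 ± 9.66 CPM (0.14 ± 0.04, adjusted p = 0.00946), where the libraries overlapped control. Itga5, the alpha chain of the classical fibronectin receptor, rose with both, from 172 ± 1.99 to 209 ± 6.46 CPM with IL-1β (0.28 ± 0.03, adjusted p = 1.15e-08) and to 228 ± 10.3 CPM with LPS (0.40 ± 0.03, adjusted p = 1.16e-11). Its partner chain, Itgb1, fell with both.

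All 3 alpha chains of laminin receptors fell with each treatment, where 23.0% of all genes fell with IL-1β and 20.0% with LPS. Of all tested members 62.1% and 55.2% fell. Itga6, which pairs with Itgb1 or Itgb4 products, stood at 182, 202, 200.0 and 207 CPM in control, at 119.6, 119, 116 and 119.6 with IL-1β and at 104, 112, 107 and 113 with LPS. Control libraries were above all treated ones, and the IL-1β libraries above the LPS libraries. The log2 fold changes were -0.74 ± 0.03 and -0.86 ± 0.03. Itga7, a laminin receptor chain best known from muscle, read 6.35, 6.05, 5.42 and 6.42 CPM in control, 3.57, 4.23, 3.29 and 4.28 with IL-1β and 4.39, 4.02, 4.64 and 4.34 with LPS. It fell without overlap (-0.67 ± 0.10 and -0.49 ± 0.10). Itga3, the third laminin-binding chain, went from 76.9 ± 0.302 to 56.8 ± 2.51 and 62.8 ± 3.40 CPM (-0.44 ± 0.04 and -0.29 ± 0.04). Itgb4, which anchors Itga6 in hemidesmosomes of epithelia, was near the detection limit with 34 to 65 counts per library. Its call with LPS (0.41 ± 0.16, adjusted p = 0.0417) was lost in DESeq2, with no filter on low counts and without any of Control replicates 1, 2 and 4 or LPS replicates 2 and 4, and its value with IL-1β (0.39 ± 0.16) was not called (adjusted p = 0.0529). The latter was called in 5 other settings (adjusted p from 0.0235 to 0.0494): library size alone, the stricter filter, the 8 libraries alone, and without Control replicate 3 or IL-1β replicate 3.

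Collagen receptor chains split. Itga11, a receptor chain for fibrillar collagen in fibroblasts, read 179.7, 199, 180.0 and 195 CPM in control, 104, 115, 107 and 131 with IL-1β and 99.0, 114, 105 and 125 with LPS. All treated libraries lay below control (-0.72 ± 0.09 and -0.76 ± 0.09). Itga1, a chain with a preference for basement membrane collagen, rose slightly, from 413 ± 3.33 to 453 ± 19.2 CPM with IL-1β (0.13 ± 0.03, adjusted p = 0.00197) and to 466 ± 26.1 with LPS (0.18 ± 0.03, adjusted p = 1.46e-04). Itga2, the other collagen receptor chain tested, rose with LPS (0.22 ± 0.05, adjusted p = 0.00120) and stood at -0.01 ± 0.05 with IL-1β. Itga10 had 1 to 10 counts per library and was not tested.

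Itga9, whose product binds tenascin, osteopontin and VCAM-1, had the lowest log2 fold change of the integrin chains in both comparisons. It read 195, 211, 195 and 203 CPM in control, 86.2, 91.9, 83.5 and 91.5 with IL-1β and 85.9, 93.2, 85.5 and 92.0 with LPS. The treated libraries lay in the same range under both treatments, and all were below the control libraries. The fall was 56.1% with IL-1β (-1.19 ± 0.04, adjusted p = 6.25e-20) and 55.7% with LPS (-1.17 ± 0.04, adjusted p = 8.46e-20). Itga4, the related chain that binds VCAM-1 and fibronectin and is abundant on leukocytes, stood at 3.49, 3.63, 3.51 and 4.08 CPM in control, at 2.53, 2.28, 2.45 and 2.65 with IL-1β and at 1.68, 1.89, 1.56 and 1.51 with LPS. The 3 groups did not overlap, with LPS lowest (-0.57 ± 0.12 and -1.15 ± 0.13).

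Itgb2, the beta chain of leukocyte integrins, read 16.6, 16.9, 16.6 and 14.4 CPM in control, 11.7, 11.0, 13.6 and 14.5 with IL-1β and 9.36, 7.52, 12.7 and 10.3 with LPS. The IL-1β libraries overlapped control and the LPS libraries did not. It fell with LPS (-0.70 ± 0.13, adjusted p = 7.72e-04). With IL-1β the value was -0.34 ± 0.13 (adjusted p = 0.0431), a call lost with library size alone and without any of Control replicates 1, 2 and 3 or IL-1β replicates 1, 2 and 3 (adjusted p up to 0.105). Macrophage markers moved beside it, with the summed levels given above. Of the 12 markers, 9 fell (75.0%, against 23.0% of all genes) and 1 rose (8.3%, against 24.7%) with IL-1β. With LPS 10 of these markers fell (83.3%, against 20.0%) and 1 rose (8.3%, against 22.5%). Their part in the levels of Itgb2 and Itga4 was not tested. Among letter-named integrin chains, which are not members, Itgal fell from 4.70 ± 0.267 to 1.21 ± 0.206 CPM with IL-1β (-1.95 ± 0.14) and to 3.80 ± 0.482 with LPS (-0.31 ± 0.11, adjusted p = 0.0285), while Itgam, the macrophage chain that pairs with Itgb2, was not called with either (-0.15 ± 0.11 and -0.08 ± 0.11). Itgae went the other way and rose with both (0.32 ± 0.09 with each, adjusted p = 0.0044 and 0.0042). Itgax was not called with IL-1β (0.30 ± 0.14, adjusted p = 0.082) and fell with LPS (-0.42 ± 0.15, adjusted p = 0.024), where the libraries overlapped control. Itga2b was not called with either. Itgb6 and Itgb7 had 6 to 21 and 3 to 12 counts per library. Itgb6, an epithelial partner of Itgav, was not called with IL-1β (-0.72 ± 0.33, adjusted p = 0.0733; called without Control replicate 4, at -0.90) or with LPS (-0.38 ± 0.30).

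**Figure D3:**
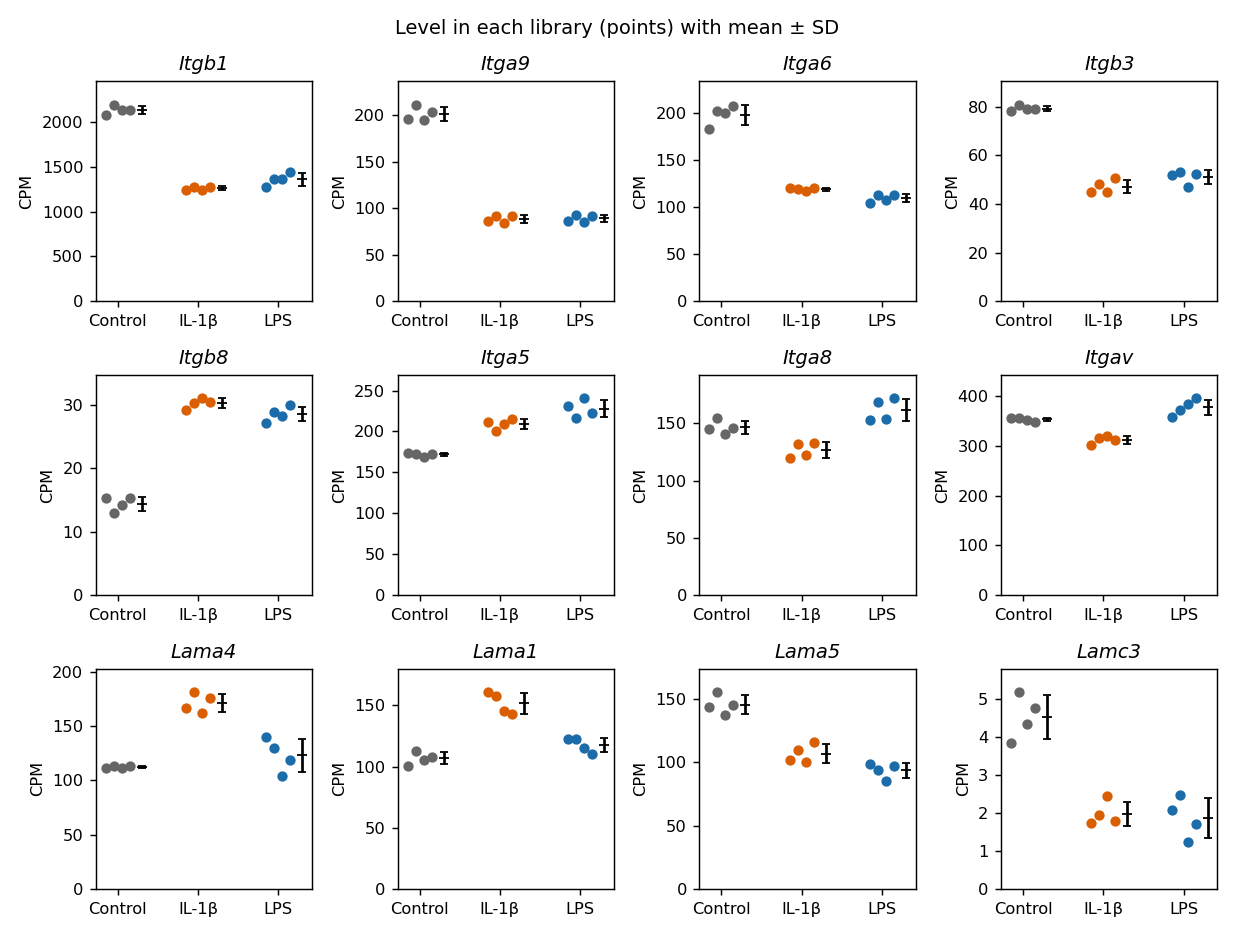
CPM in each library (points) for 12 members, with mean ± SD beside them, for control (grey), IL-1β (orange) and LPS (blue). Each y axis starts at 0. Itgb8 sits between 13.0 and 15.3 CPM in control and above 27 CPM in every treated library, and Lama4 spreads from 104 to 140.0 CPM in the LPS libraries.

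Laminin alpha chains, which carry the part of the trimer that cells bind, did not move together. Lama4, the chain of vessel and mesenchymal laminins, read 111, 113, 112 and 113 CPM in control, 166, 181, 162 and 175 with IL-1β and 140.0, 129, 104 and 119 with LPS. All IL-1β libraries were above control, while the LPS libraries straddled it. The rise with IL-1β was 1.53-fold (0.61 ± 0.08, adjusted p = 6.05e-05). With LPS the value of 0.13 ± 0.08 was not called (adjusted p = 0.198). It was called without LPS replicate 3 (0.20, adjusted p = 0.00151) and without LPS replicates 3 and 4 together (0.26, adjusted p = 2.71e-06). Replicates 3 and 4 were the LPS libraries lowest in Lama4, and leaving out both was chosen after seeing the data. A higher value without them follows from that choice and is no evidence of a rise. Summed endothelial markers in LPS replicates 1 to 4 were 521, 502, 413 and 449 CPM, in the same order as Lama4 there. The order was also the same in IL-1β replicates 1 to 4 (577, 589, 538 and 578 CPM). It was not the same in control replicates 1 to 4 (432, 415, 395 and 418 CPM). Of the 12 markers 11 rose with IL-1β (91.7%, against 24.7% of all genes) and 10 with LPS (83.3%, against 22.5%). Eng, which makes up the larger part of the control sum, fell with both, from 219 ± 7.60 to 144 ± 6.51 and 146 ± 5.19 CPM. Their part in the level of Lama4 was not tested.

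Lama1, the alpha chain of early basement membranes, rose with both treatments. It stood at 101, 113, 106 and 108 CPM in control, at 161, 157, 145 and 143 with IL-1β and at 122, 122, 115 and 111 with LPS. The IL-1β libraries lay above the other groups, and the lowest LPS library overlapped control (0.51 ± 0.04, adjusted p = 3.14e-09, and 0.14 ± 0.04, adjusted p = 0.0129). The small rise with LPS was not called without Control replicate 1 (0.11, adjusted p = 0.0511). Lama5, the alpha chain of mature epithelial and vessel basement membranes, moved the other way. It read 144, 155, 137 and 145 CPM in control, 102, 109.9, 100.5 and 116 with IL-1β and 98.6, 94.0, 85.1 and 96.7 with LPS, with each treated library below control (-0.45 ± 0.05 and -0.64 ± 0.05).

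Lama2, the alpha chain of muscle and nerve laminin, fell from 64.7 ± 2.36 to 49.3 ± 3.56 CPM with LPS (-0.39 ± 0.05, adjusted p = 8.02e-08). With IL-1β it was 59.8 ± 2.90 CPM (-0.11 ± 0.05, adjusted p = 0.0400), a call lost with library size alone (-0.06, adjusted p = 0.261), in DESeq2 and without any of Control replicates 2, 3 and 4 or IL-1β replicates 1 and 3. Lama3, the chain of epithelial anchoring laminin, had 16 to 54 counts per library and fell by 0.67 ± 0.21 and 0.68 ± 0.21 on the log2 scale with IL-1β and LPS. Neither call held without Control replicate 1 (adjusted p = 0.0573 and 0.0550).

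Beta and gamma chains moved less, apart from Lamc3. Lamb1, the widespread beta chain, rose a little, from 503 ± 12 to 555 ± 21.2 CPM with IL-1β (0.14 ± 0.03, adjusted p = 4.37e-04) and to 539 ± 20.8 with LPS (0.10 ± 0.03, adjusted p = 0.00987). Lamb2, which replaces it at synapses, in glomeruli and around vessel smooth muscle, fell from 505 ± 28.4 to 449 ± 18.8 (-0.17 ± 0.05, adjusted p = 0.0154, lost with library size alone) and to 390.1 ± 28.3 CPM (-0.37 ± 0.05, adjusted p = 5.16e-05). Lamc1, the gamma chain of most laminins, fell from 492 ± 12.9 to 452 ± 13.0 and 435 ± 16.5 CPM (-0.12 ± 0.03 and -0.18 ± 0.03), and with library size alone the value with IL-1β was -0.07. Lamc3, a rare gamma chain, read 3.84, 5.19, 4.34 and 4.78 CPM in control, 1.73, 1.95, 2.45 and 1.80 with IL-1β and 2.09, 2.49, 1.25 and 1.71 with LPS. No treated library reached the control range, and the log2 fold changes were -1.19 ± 0.16 (adjusted p = 4.61e-07) and -1.26 ± 0.16 (adjusted p = 1.88e-07). Lamb3, which joins Lama3 in epithelial anchoring laminin, had 14 to 27 counts per library and was not called with either treatment.

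A ratio of 2 chains within a library does not depend on how libraries are scaled. Ratios were taken for 8 pairs of chains that fill the same place or share a partner, and compared with an exact permutation test (two-sided, 70 arrangements of 4 against 4 libraries) that cannot give a p under 0.0286. P-values were adjusted over 24 comparisons, and a group that did not overlap the other had an adjusted p of 0.0403. The Lama4/Lama5 count ratio was 0.770, 0.726, 0.814 and 0.782 in control, 1.64, 1.65, 1.61 and 1.51 with IL-1β and 1.42, 1.38, 1.22 and 1.23 with LPS. Each treated library thus had more Lama4 than Lama5 reads and each control library fewer, a 2.07-fold and a 1.69-fold change of the ratio (exact permutation p = 0.0286, adjusted p = 0.0403 for each). Lama4/Lama2 rose 1.65-fold and 1.43-fold and Lamb1/Lamb2 1.24-fold and 1.39-fold with IL-1β and LPS, at the same p. Among integrins Itga1/Itga11 rose 1.82-fold and 1.92-fold, and Itga5/Itgav 1.38-fold and 1.24-fold, again without overlap. Itga6/Itga3 fell, from a geometric mean of 2.57 in control to 2.09 with IL-1β and 1.74 with LPS. Itgb3/Itgb5, 2 chains that fell by like amounts, went from 0.238 to 0.216 with IL-1β and 0.245 with LPS, and neither difference passed (exact permutation p = 0.0571 and 0.343, adjusted p = 0.0722 and 0.392).

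**Figure D4:**
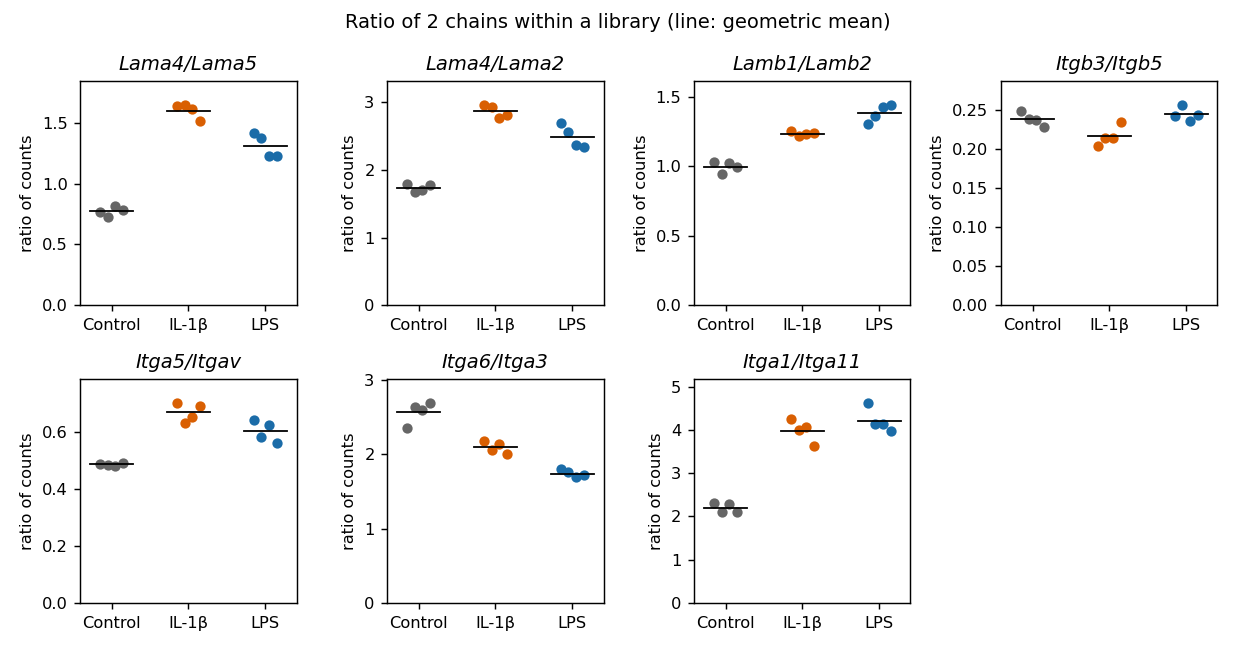
Ratio of the counts of 2 chains within each library (y axis, from 0) for 7 of the 8 pairs by group (x axis), with the geometric mean as a line. Lama4/Lama5 lies between 0.726 and 0.814 in control and at 1.22 or more in every treated library.

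LPS was compared directly with IL-1β to see where the stimuli differ. Relative to IL-1β, 6 of 29 members were higher with LPS (20.7%, against 11.3% of all genes) and 7 were lower (24.1%, against 10.6%), with a median of -0.04. All 6 higher were integrin chains: Itga8 (0.35 ± 0.04, adjusted p = 5.33e-06), Itgav (0.27 ± 0.03, adjusted p = 1.13e-07), Itga2 (0.23 ± 0.05), Itga3 (0.15 ± 0.04), Itga5 (0.12 ± 0.03) and Itgb1 (0.11 ± 0.03). Of 11 laminin chains 5 were lower (45.45%, against 10.6% of all genes) and 0 higher (against 11.3%) by edgeR. With 11 chains a count of 0 is not far from that share. It was 0 also at an unadjusted p under 0.05, by DESeq2 and by limma-voom, all from the same counts. The laminin chains that were lower were Lama4 (-0.47 ± 0.08, adjusted p = 0.00133), Lama1 (-0.37 ± 0.04, adjusted p = 2.75e-06), Lama2 (-0.28 ± 0.05, adjusted p = 7.89e-05), Lamb2 (-0.20 ± 0.05) and Lama5 (-0.19 ± 0.05). The other 2 lower were Itga4 (-0.58 ± 0.14, adjusted p = 0.00300) and Itga6 (-0.12 ± 0.04, adjusted p = 0.0148). Itgb2 was not called (-0.35, adjusted p = 0.0888), but it was called lower by DESeq2, by limma-voom, with no filter on low counts, with the replicate block and without LPS replicate 3, and Itgb3 (0.12, adjusted p = 0.0507) was called higher with no filter, with the block and without IL-1β replicate 4 or LPS replicate 3. The calls of Itgb1 without LPS replicate 4, of Lama5 without IL-1β replicate 2 and of Itga6 without LPS replicate 1 (adjusted p = 0.0512) were lost. Without LPS replicates 3 and 4, the LPS libraries lowest in Lama4, the number higher was 3 (Itga8, Itgav and Itgb3) and the number lower 5 (Itga6, Itgb2, Lama1, Lama2 and Lama4).

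For several members with large changes the 2 treatments lay close together. The LPS minus IL-1β difference in log2 had a 95% interval of -0.06 to 0.09 for Itga9, of -0.18 to 0.02 for Itgb8, of -0.13 to 0.0032 for Itgb5 and of -0.24 to 0.16 for Itga11. For Lamc3 the interval was wider, from -0.44 to 0.30.

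Partner genes give the setting. Their lists were chosen with earlier results of these data known, so their shares are no independent support. Of 16 tested partners of laminin in basement membranes, 10 fell (62.5%, against 23.0% of all genes) and 4 rose (25.0%, near the 24.7% of all genes) with IL-1β, and 11 fell (68.8%, against 20.0%) and 2 rose (12.5%, against 22.5%) with LPS (medians -0.48 and -0.58). Col4a3 (-1.39 ± 0.06 and -1.21 ± 0.06) and Col4a6, both chains of type IV collagen, and Ntn1, a laminin-related guidance protein, had the smallest p with IL-1β, and Col4a3, Col4a2 (-0.71 ± 0.04) and Col4a6 with LPS. Among 8 laminin receptors and co-receptors that are not integrins, 5 fell (62.5%) and 2 rose (25.0%) with IL-1β and 6 fell (75.0%) and 2 rose (25.0%) with LPS, against the same shares of all genes. Dag1, which codes for dystroglycan, went from 2545 ± 72.8 to 1293 ± 29.7 and 1369 ± 49.6 CPM (-0.98 ± 0.03 and -0.89 ± 0.03), and Sdc4, a heparan sulfate co-receptor for fibronectin, from 96.5 ± 4.73 to 208 ± 7.61 and 218 ± 4.56 CPM (1.10 ± 0.03 and 1.18 ± 0.03).

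Of 28 genes of the plaque that links integrin tails to actin, 20 fell with IL-1β (71.4%, against 23.0% of all genes) and 5 rose (17.9%, against 24.7%), and 18 fell with LPS (64.3%, against 20.0%) and 4 rose (14.3%, against 22.5%). Tns1, a tensin, went from 647 ± 18.8 to 216 ± 10.1 and 252 ± 6.93 CPM (-1.58 ± 0.03 and -1.36 ± 0.03). Vcl (vinculin; -0.95 ± 0.03 and -0.79 ± 0.03) and Lims2, which codes for a LIM adaptor of integrin-linked kinase (-2.11 ± 0.07 and -1.89 ± 0.07), fell as well. Smooth muscle markers moved beside these genes, at the summed levels given above. Of the 10 markers, 7 were lower (70%, against 23.0% of all genes) and 2 higher (20%, against 24.7%) with IL-1β. With LPS 8 of these markers were lower (80%, against 20.0%) and 0 higher (against 22.5%). Their part in the falls of the integrin and adaptor genes was not tested. Of 14 tested ligands of integrins other than laminin, 3 were higher (21.4%, near the 24.7% of all genes) and 6 lower (42.9%, against 23.0%) with IL-1β, and 5 higher (35.7%, against 22.5%) and 7 lower (50%, against 20.0%) with LPS. Vcam1, a ligand of the Itga4 and Itga9 integrins, went from 10.3 ± 1.89 to 23.0 ± 0.418 CPM with IL-1β (1.16 ± 0.08) and to 54.9 ± 1.56 with LPS (2.41 ± 0.08), while both those receptor chains fell. Thbs1, a matricellular ligand, rose (0.48 ± 0.03 and 0.62 ± 0.03) and Postn, or periostin, fell (-1.26 ± 0.09 and -1.63 ± 0.09).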

How the data were processed

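Raw read counts per gene symbol were taken as deposited, 1 column per library, not normalized by the authors. Build Rnor_6.0 and the tools TopHat2 2.1.1, DESeq2 and SAMtools are named in the submitters' processing notes. The counting program, its strand setting and the annotation are not given in the sources used here. The members and gene lists were chosen with earlier results of these data known.

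Counts were tested with edgeR 4.0.16 in R 4.3.3. After filterByExpr 17330 genes remained, TMM factors ran from 0.976 to 1.02, and 1 model with the 3 groups was fitted to all 12 libraries (glmQLFit, robust, two-sided quasi-likelihood F-tests, Benjamini-Hochberg adjustment). The SE is the absolute log2 fold change divided by the square root of F. Ratios used counts plus 0.5 and SciPy 1.17.1. The edgeR procedure was tested on simulated counts of 17330 genes. For IL-1β and LPS against control it called 76% and 80% of 1.25-fold changes and 100% of 2-fold changes. There were 17 false calls in each. The simulated libraries were drawn independently, with no link between same-numbered replicates. Values in every library are given for called members with a mean of at least 2 CPM and an absolute log2 fold change of at least 0.5. Partner genes were named by smallest p in their list. Itgam, Eng, the theca markers beyond Star, Pdgfra and Col1a1, and Msln, Krt18, Wt1, Inha, Tagln and Acta2 were named after their values were seen. Levels of different genes were to be compared per length, which was not done because no transcript length was used. No numbered second copy of a member was in the table. Itgb1 and Lama5 each had a row of another gene (Dag1 and Smtn) of like level whose values correlated with theirs at 0.995 or more over the 12 libraries. Values of 1 tested member, and of the ratio that holds it, are not reported here, though both are counted in the totals. Alternatives were other scalings and filters, DESeq2 1.42.0, limma-voom (limma 3.58.1), the 8 libraries of a contrast alone, a replicate block, a stricter threshold and each library left out.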

Additional observations from a re-analysis of the deposited data

Results flagged for a closer look

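In 3 of 93 groups of 4 libraries, 1 library stood apart from the other 3 by more than Dixon's 95% critical value, where chance alone gives about 1 in 20. They were Itga6 in IL-1β replicate 3 (116 CPM), Itgb2 in Control replicate 4 (14.4 CPM) and Lama2 in LPS replicate 3 (44.0 CPM). Itga6 in the IL-1β group spanned a narrow range, and leaving out that library changed none of its calls.

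Itga8 and Itgav passed the threshold in opposite directions under the 2 treatments. A call in the direct comparison of LPS with IL-1β was part of the rule that flagged them, so here it is no separate test. That comparison gave 0.35 for Itga8, with all 4 LPS libraries above all 4 IL-1β libraries, and 0.27 for Itgav, likewise without overlap. The rise of Itgav with LPS was not called without LPS replicate 4 (adjusted p = 0.0569).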

How the results depend on the processing

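Of 87 log2 fold changes of members (29 genes in 3 comparisons) none changed sign while called, under any alternative run. Values near 0 that were called neither way did change sign under some of them, among them Itga2 with IL-1β, Lamb3 with LPS, and Itga9, Itga11, Itgb4, Lama3 and Lamc3 in LPS against IL-1β. With each library left out in turn, the number of members higher ran from 6 to 7 with IL-1β, from 7 to 10 with LPS and from 5 to 7 for LPS against IL-1β, and the number lower from 16 to 18, from 15 to 16 and from 6 to 8. The other planned settings gave 14 to 18 lower with IL-1β and 15 to 16 with LPS. The number lower in LPS against IL-1β was 4 at an adjusted p under 0.01, where the threshold itself is stricter, and the number higher there was 3 without LPS replicates 3 and 4 together, an alternative chosen after seeing the data that leaves fewer samples.

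Scaling mattered for small changes: with library size alone the share of calls that were higher, over all genes, was 64.1% for IL-1β and 63.4% for LPS, against 51.7% and 53.0% with TMM, and the median of all genes moved by under 0.1. Same-numbered replicates were not paired by the labels, and their deviations correlated over 0.1 in 4 of 12 pairs, 3 of them between IL-1β and LPS (0.203, 0.165 and 0.250). A sample correlated best with its own number in 15 of 24 comparisons with 4 candidates each, of which chance alone picks 1 in 4. With the replicate block the number higher was 6, 9 and 7 and the number lower 18, 16 and 8 in the 3 comparisons, the added calls being Itgb3 (0.12) and Itgb2 (-0.35) in LPS against IL-1β, while no other call of a member changed. Members under about 1 CPM (Itga10, Itgb6, Itgb7 and Lamb3) were limited by depth. Leaving out a library in a ratio leaves 7 libraries, too few for the exact test to pass, so it shows nothing of their stability.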
